A study of Homo sapiens with 8 samples.

Results

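The m6A writer complex is the machinery that places N6-methyladenosine (m6A) on messenger RNA. Its 8 listed subunits (METTL3, METTL14, WTAP, KIAA1429, RBM15, RBM15B, ZC3H13 and CBLL1) were taken from the count table by gene symbol. All 8 were among the 27140 genes of the table, KIAA1429 under that older symbol of VIRMA, and all 8 were among the 15289 that passed the filter on low counts. RNA was measured by sequencing in 4 stable lines of LNCaP, a human prostate adenocarcinoma line, with 2 libraries each. The control carried a control hairpin and a vector, and the knockdown a METTL3 hairpin and a vector. The wild-type rescue and the mutant rescue carried the METTL3 hairpin with a hairpin-resistant METTL3, either wild-type or catalytically dead. Lentivirus was used to make all 4 lines, and puromycin (1 µg/ml) to select them. The labels do not name the hairpin sequence, the promoter of the introduced METTL3, the mutated residues or whether a line is 1 clone. Separate cultures for the 2 libraries of a line are not mentioned, so p-values measure only the spread between these libraries, which may be technical.

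The complex is built around a heterodimer of METTL3, which holds the methyl donor S-adenosylmethionine and catalyses the transfer, and METTL14, which lacks catalytic activity and helps to bind RNA. WTAP joins this core to a larger regulatory assembly that includes KIAA1429, ZC3H13, RBM15, RBM15B and the E3 ubiquitin ligase CBLL1, also known as HAKAI. The mark that they place is bound by reader proteins and removed by the demethylases FTO and ALKBH5, and in many cell types it affects splicing, export, decay and translation of the RNA.

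The coding sequence around the catalytic motif of METTL3 and its counterpart in METTL14 is shown because the rescue lines differ in the catalytic activity of the introduced METTL3. Capitals mark the 4 codons of the DPPW motif of METTL3 (codons 395 to 398 of the METTL3-201 transcript) and of the EPPL motif at the corresponding site of METTL14 (codons 192 to 195 of METTL14-201). Each stretch is 60 bases of reference sequence, 5′ to 3′ on the coding strand, from GENCODE transcripts placed on GRCh38, a later build than the hg19 of the counts. That of METTL3 lies in the coding part of exon 6 of 11 on the minus strand, chr14:21500581-21500640, and that of METTL14 in exon 7 of 11 on the plus strand, chr4:118697228-118697287.
METTL3: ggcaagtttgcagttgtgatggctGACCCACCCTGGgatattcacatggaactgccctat
METTL14: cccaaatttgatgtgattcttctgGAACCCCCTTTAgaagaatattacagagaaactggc
Whether the codons in capitals are those changed in the mutant rescue is not stated in the labels. A count per gene does not separate the introduced METTL3 from the endogenous one.

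The libraries held 15200343 to 17893241 counts, and the writer genes had between 336 counts (METTL14) and 5874 counts (METTL3) in a library. Replicate libraries varied beyond counting noise (chi-square per degree of freedom 1.21 to 1.35 over the 4 lines). The 7 luminal prostate markers used, KLK3 among them, were all above 1 CPM (reads per gene after TMM scaling of the libraries) on average. Their summed level was 7370 to 7400 CPM in the control and 5710 to 6010 CPM in the 3 hairpin lines. KLK3 was the largest part, at 3705 and 3683 CPM in the control and 2598 and 2636 CPM in the knockdown. Of the 7, only FOLH1 was higher in the knockdown (1045 and 1044 CPM) than in the control (945.7 and 944.2 CPM). Of 3 basal, 3 fibroblast and 3 immune markers, 1 of each list averaged over 1 CPM. These were the keratin KRT14 (2.26 to 3.48 CPM in a library), the collagen gene COL1A1 and the lysosomal protein gene CD68. COL1A1 was at 76.3 and 77.4 CPM in the control, 79.7 and 87.9 CPM in the knockdown, 92.9 and 93.2 CPM in the wild-type rescue, and 97.1 and 102.8 CPM in the mutant rescue. CD68 was highest in the control (23.5 and 26.2 CPM), lowest in the wild-type rescue (15.5 and 18.1 CPM), and at 20.6 and 22.0 CPM in the mutant rescue. The other fibroblast, basal and immune markers were at or near 0: COL1A2 at 0 CPM in all libraries, KRT5 at 0.0079 CPM and PTPRC, of white blood cells, at 0.00705 CPM on average, and DCN, CD3E and TP63 at 0.709 CPM or less in any library. The part of these differences in the results on writer genes was not tested. RNA was taken from whole cultures, so fewer cells with a transcript and less of it per cell cannot be told apart.

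METTL3, the catalytic subunit and target of the hairpin, checks the labels. Its level was 68.4 and 68.5 CPM in the control, 26.2 and 31.3 CPM in the knockdown, 309 and 325 CPM in the wild-type rescue, and 333 and 334 CPM in the mutant rescue. The 4 lines did not overlap, and METTL3 followed the labels in all 8 libraries. Knockdown lowered it by 58.2% (log2 fold change -1.26, SE 0.05, edgeR quasi-likelihood adjusted p = 1.50e-48), and the wild-type and mutant rescues held 4.64-fold and 4.88-fold the control level. The mean was 317 ± 10.8 CPM in the wild-type rescue and 333.7 ± 0.632 CPM in the mutant rescue (SD, n = 2). Between these lines, compared for catalytic activity, the fitted difference in total METTL3 transcript was 5.18%.

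**Figure D1:**
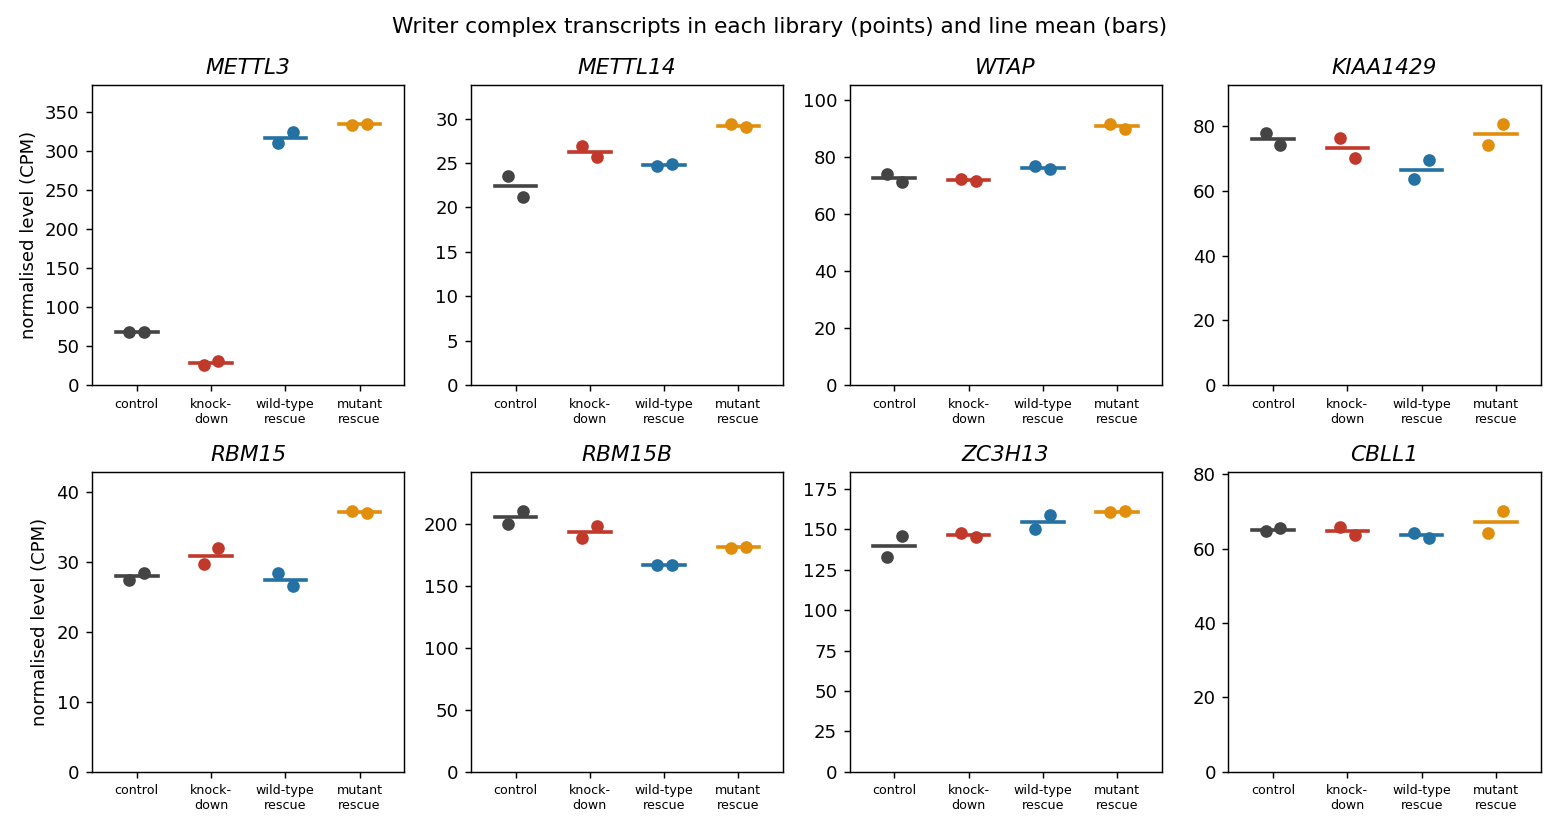
Normalised level in CPM (vertical axis, from 0, a scale for each gene) of the 8 writer genes in the 4 lines; points are the 2 libraries of a line and bars their mean. METTL3 spans an 11.6-fold range of line means, whereas the other 7 genes span 1.06-fold (CBLL1) to 1.35-fold (RBM15).

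METTL3 transcript varied over 11.6-fold between line means and the rest of the complex over 1.35-fold at most. Per kilobase of gene length, the order in the control was METTL3 (33.8 CPM per kilobase), RBM15B (31.0), WTAP (20.8), then CBLL1 and ZC3H13, then KIAA1429 (11.5), RBM15 (8.15) and METTL14 (6.38). Neighbours in this order did not overlap between libraries except CBLL1 and ZC3H13, the latter at 14.3 CPM per kilobase. METTL14, the partner of METTL3, was the lowest of the 8 in all 4 lines.

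In the knockdown, METTL3 dropped to the fifth place at 14.2 CPM per kilobase, where its libraries overlapped those of CBLL1 and spanned those of ZC3H13. In both rescues it stood first, at 157 and 165 CPM per kilobase in the wild-type and mutant lines, above RBM15B at 25.1 and 27.3. The order of the other 7 was the same in the knockdown and both rescues: RBM15B, WTAP, ZC3H13, CBLL1, KIAA1429, RBM15 and METTL14.

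The ratio of METTL3 to METTL14, as counts per length, was 5.03 and 5.61 in control cells and 1.69 and 2.12 in the knockdown. It was 21.8 and 22.6 in the wild-type rescue and 19.7 and 19.9 in the mutant rescue. No lines overlapped, and the knockdown had the lowest ratio. The means were 5.32 ± 0.410, 1.90 ± 0.303, 22.2 ± 0.562 and 19.8 ± 0.208 (SD, n = 2). An exact permutation test of the log2 ratio over all 8 libraries and 4 lines gave p = 0.00952, the smallest it can give. It was added after the values were seen. METTL3 was lowered or introduced by design, so a difference among lines was built in and no conclusion is drawn from this p. Between any 2 lines no such test can reach 0.05, and none was made. The ratio compares transcripts, and protein was not measured here.

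**Figure D2:**
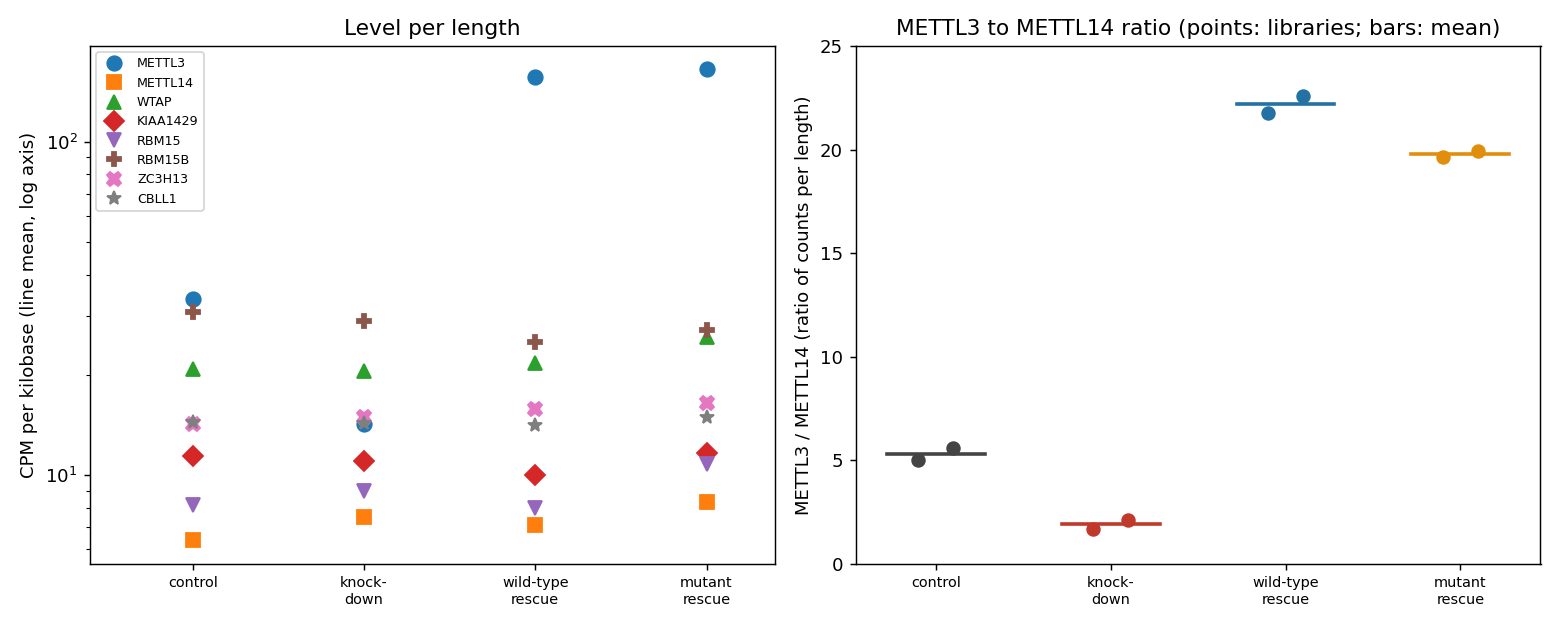
Left: line means of the 8 writer genes in CPM per kilobase on a log axis, 1 marker per gene. Right: ratio of METTL3 to METTL14 counts per length in each library (points) with line means (bars), lowest in the knockdown at 1.90 and highest in the wild-type rescue at 22.2.

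METTL14 was lowest in the control and highest in the mutant rescue. Its libraries stood at 23.6 and 21.2 CPM in the control, 26.9 and 25.7 CPM in the knockdown, 24.6 and 24.9 CPM in the wild-type rescue, and 29.4 and 29.0 CPM in the mutant rescue. Both knockdown and both mutant rescue libraries lay above every library of the control and the wild-type rescue. METTL14 was 30.5% higher in the mutant rescue than in the control (log2 fold change 0.38, SE 0.08, edgeR adjusted p = 4.85e-06), a call that held in every alternative setting. It was also higher in the knockdown than in the control, by 17.7% (log2 fold change 0.23, SE 0.08, edgeR adjusted p = 0.00725). That call ended with DESeq2 (adjusted p = 0.0875), without control replicate 2 (edgeR adjusted p = 0.176) and without knockdown replicate 1 (edgeR adjusted p = 0.0878). Between the rescues METTL14 was higher in the mutant line by 0.24 on the log2 scale (SE 0.07, edgeR adjusted p = 0.00580; DESeq2 adjusted p = 0.0905).

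WTAP, the adaptor that holds the core and the regulatory subunits together, stood apart in the mutant rescue. It was at 74.2 and 71.3 CPM in the control, 72.4 and 71.7 CPM in the knockdown, 76.8 and 75.6 CPM in the wild-type rescue, and 91.6 and 90.0 CPM in the mutant rescue. The 6 libraries of the other lines lay between 71.3 and 76.8 CPM. WTAP was higher in the mutant rescue than in the wild-type rescue by 19.1% (log2 fold change 0.25, SE 0.04, edgeR adjusted p = 5.20e-07). Over the knockdown it was higher by 0.33 on the log2 scale (SE 0.05, edgeR adjusted p = 5.31e-11), and over the control by 0.32 (SE 0.05, edgeR adjusted p = 2.47e-10). These 3 calls held in every alternative setting. In the 3 comparisons among the other lines WTAP was not called, with log2 fold changes of -0.01 to 0.08.

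WTAP shares 437 bases of annotated exon sequence with SOD2, a mitochondrial superoxide dismutase gene on the opposite strand (GENCODE, GRCh38). SOD2 was also higher in the mutant rescue, at 132.4 CPM against 100.6 CPM in the wild-type rescue (log2 fold change 0.40, SE 0.04). The kit keeps strand, but the strand setting of the counting is not given in the sources used here. The part of SOD2 reads in the WTAP counts was not tested. On knockdown SOD2 was higher than in the control (log2 fold change 0.14, SE 0.04, edgeR adjusted p = 0.00268), where WTAP was at -0.01. METTL3 likewise shares 388 bases with TOX4, which stood between 81.9 and 95.0 CPM in the line means. TOX4 was higher in the mutant than in the wild-type rescue (log2 fold change 0.18, SE 0.04), where METTL3 was at 0.07. The part of TOX4 reads in the METTL3 counts was not tested.

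The paralogs RBM15 and RBM15B, RNA-binding proteins that recruit the complex to its target transcripts, had their highest levels in different lines. RBM15 was at 27.5 and 28.5 CPM in the control, 29.7 and 32.0 CPM in the knockdown, 28.4 and 26.5 CPM in the wild-type rescue, and 37.3 and 37.0 CPM in the mutant rescue. The mutant rescue lay above every other library. RBM15 was 35.7% higher there than in the wild-type rescue (log2 fold change 0.44, SE 0.07, edgeR adjusted p = 1.07e-08). This was the largest difference of a writer gene between the rescues. It was also higher than in the knockdown (0.27, SE 0.07, edgeR adjusted p = 2.07e-04) and the control (0.41, SE 0.07, edgeR adjusted p = 5.28e-08). These 3 calls held in every alternative setting.

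RBM15B was at 200.3 and 210.6 CPM in the control, 188 and 198 CPM in the knockdown, 166 and 167 CPM in the wild-type rescue, and 181 and 182 CPM in the mutant rescue. The lines did not overlap, with the control highest and the wild-type rescue lowest. It was called in all 6 comparisons. Against the control it was lower by 18.8% in the wild-type rescue (log2 fold change -0.30, SE 0.03, edgeR adjusted p = 2.54e-17) and by 11.8% in the mutant rescue (-0.18, SE 0.03, edgeR adjusted p = 4.45e-08).

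On knockdown RBM15B fell by 0.09 on the log2 scale (SE 0.03, edgeR adjusted p = 0.00727). This call ended with DESeq2 (adjusted p = 0.142), without control replicate 2 (edgeR adjusted p = 0.269) and without knockdown replicate 1 (edgeR adjusted p = 0.281). RBM15B shares 1325 bases of exon sequence with DCAF1, a substrate receptor of a ubiquitin ligase on the opposite strand. DCAF1 was lower than in the control in the wild-type rescue (log2 fold change -0.25, SE 0.06) and in the mutant rescue (-0.26, SE 0.06), and the part of its reads in the RBM15B counts was not tested.

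KIAA1429, the scaffold that is known to direct methylation toward the 3′ end of transcripts, was lowest in the wild-type rescue. It was at 78.0 and 74.3 CPM in the control, 76.3 and 70.3 CPM in the knockdown, 63.7 and 69.6 CPM in the wild-type rescue, and 74.4 and 80.7 CPM in the mutant rescue. The wild-type rescue lay below every other library. KIAA1429 was higher in the mutant rescue than in the wild-type rescue by 16.2% (log2 fold change 0.22, SE 0.05, edgeR adjusted p = 9.58e-05), a call that held in every alternative setting. The wild-type rescue was lower than the control by 12.3% (-0.19, SE 0.05, edgeR adjusted p = 4.88e-04; 0.0509 without wild-type rescue replicate 1). It was lower than the knockdown by 0.14 on the log2 scale (edgeR adjusted p = 0.0264), at -0.05 with the length trend removed (edgeR adjusted p = 0.536). That call also ended with DESeq2 (adjusted p = 0.169), without knockdown replicate 1 (edgeR adjusted p = 0.469) and without wild-type rescue replicate 1 (edgeR adjusted p = 0.386).

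ZC3H13, a zinc finger scaffold that helps keep the complex in the nucleus, was at 133 and 146 CPM in the control, 148 and 145 CPM in the knockdown, 150.4 and 159 CPM in the wild-type rescue, and 161 and 162 CPM in the mutant rescue. Both rescues lay above the control and the knockdown. Against the control ZC3H13 was higher by 0.21 on the log2 scale in the mutant rescue (SE 0.03, edgeR adjusted p = 4.31e-08). In the wild-type rescue it was higher by 0.15 (SE 0.03, edgeR adjusted p = 5.89e-05), which ended without control replicate 1 (log2 fold change 0.08, edgeR adjusted p = 0.0911). Against the knockdown it was higher in the mutant rescue (0.14, SE 0.03, edgeR adjusted p = 2.70e-04). The wild-type rescue against the knockdown was not called at 0.08 (edgeR adjusted p = 0.0643), but became a call at 0.21 with the length trend removed (edgeR adjusted p = 1.37e-07). It was also called without wild-type rescue replicate 1 (edgeR adjusted p = 0.0148) and with only genes of at least 10 CPM tested (edgeR adjusted p = 0.0336).

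CBLL1, the ubiquitin ligase subunit, was called in 0 of 6 comparisons by edgeR with all libraries, and in 0 of 6 by DESeq2. No comparison of CBLL1 had an unadjusted p under 0.05. Its 8 libraries stood between 62.9 and 70.1 CPM, and 7 of them between 62.9 and 65.7 CPM. The highest, mutant rescue replicate 2, had 70.1 CPM against 64.2 CPM in replicate 1. CBLL1 was higher in the mutant than in the wild-type rescue without mutant rescue replicate 1 (log2 fold change 0.14, edgeR adjusted p = 0.0473).

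The first comparison asks how the rest of the complex responds when METTL3 is depleted. METTL3 and RBM15B fell, METTL14 rose, and the other 5 writer genes were not called. WTAP, KIAA1429 and CBLL1 had log2 fold changes of -0.01, -0.05 and -0.01, RBM15 of 0.14 and ZC3H13 of 0.07. Thus 3 of 8 were called, in a comparison where 48.0% of the 15289 tested genes were (22.9% higher and 25.1% lower). The call of METTL3 was built in by design, and 2 of the other 7 were called. Without METTL3, the median absolute log2 fold change of the writer genes was 0.071, against 0.191 over all tested genes. With DESeq2, or without knockdown replicate 1, the only writer gene called was METTL3. ZC3H13 became a call, higher on knockdown, without control replicate 2 (log2 fold change 0.14, edgeR adjusted p = 0.00512), with only genes of at least 10 CPM tested (0.0312) and with only these 2 lines fitted (0.0286). RBM15 became a call, also higher, with the length trend removed (0.17, edgeR adjusted p = 0.0379).

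Wild-type rescue and knockdown were compared to ask what follows when active METTL3 is supplied. METTL3 rose 11.1-fold, RBM15B and KIAA1429 fell, and the other 5 were not called. RBM15B fell by 0.21 on the log2 scale (SE 0.03, edgeR adjusted p = 2.16e-09), and that call held in every alternative setting. METTL14 (-0.09) and RBM15 (-0.17) lay below the knockdown in both libraries without passing the test. Here 3 of 8 writer genes were called, or 2 of 7 without METTL3, which was introduced by design. Of all tested genes 24.0% were called (10.8% higher and 13.2% lower). Longer genes tended to lower fold changes in this comparison (Spearman rho -0.346 across 15289 genes, which are not independent replicates). The lengths of the writer genes ran from 2022 bases in METTL3 to 9777 bases in ZC3H13.

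Mutant rescue and knockdown were compared to ask what a catalytically dead METTL3 changes. METTL3 rose 11.7-fold, WTAP, RBM15 and ZC3H13 rose, and RBM15B fell by 0.09 on the log2 scale. METTL14, KIAA1429 and CBLL1 were not called, at 0.15, 0.08 and 0.06. That is 5 of 8, or 4 of 7 without the introduced METTL3, against 51.7% of all tested genes (25.9% higher and 25.8% lower). The RBM15B call ended with DESeq2 (adjusted p = 0.0651), without knockdown replicate 2 (edgeR adjusted p = 0.214) and with the length trend removed (log2 fold change -0.005, edgeR adjusted p = 0.902). KIAA1429 became a call, higher in the mutant rescue, with the length trend removed (0.17, edgeR adjusted p = 0.00168), without knockdown replicate 1 (edgeR adjusted p = 0.0386) and without mutant rescue replicate 1 (edgeR adjusted p = 0.0416).

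**Figure D3:**
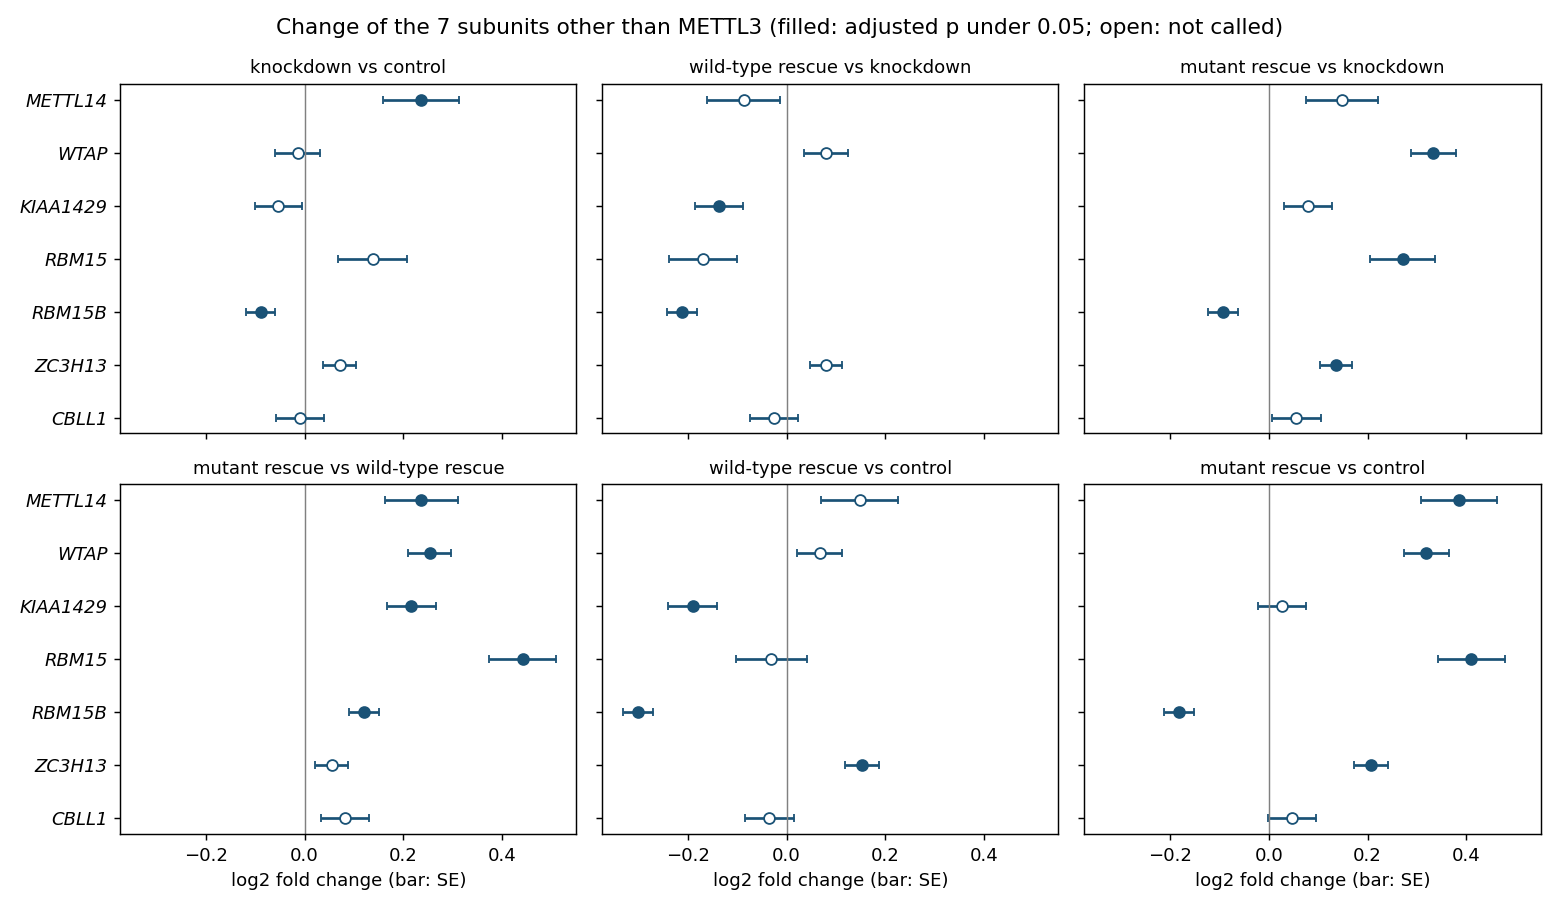
Log2 fold change (horizontal axis, bars are the SE) of the 7 writer genes other than METTL3 in the 6 comparisons, filled where the edgeR adjusted p was under 0.05. With the rescues compared, all 7 points lie above 0, from 0.05 to 0.44, and 5 of them are filled.

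The 2 rescues differ by label in catalytic activity alone, at similar METTL3 transcript levels. Each is a single line, made separately, so an effect of catalytic activity and a difference between lines cannot be told apart. Each of the 8 writer genes had its mean higher in the mutant rescue, with all libraries and in every alternative setting, and 6 of 8 were called higher: RBM15, WTAP, METTL14, KIAA1429, RBM15B and METTL3. None was called lower. The call rate over all tested genes was 41.3%, with 21.0% called higher and 20.3% lower. The median log2 fold change of the 7 other than METTL3 was 0.216, beside 0.000 over all tested genes. In absolute size the median was 0.216 for these 7 and 0.168 for all 8 writer genes, beside 0.168 over all tested genes. ZC3H13 (0.05, SE 0.03) and CBLL1 (0.08, SE 0.05) did not pass the test.

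Both libraries of the mutant rescue lay above both of the wild-type rescue in 7 of 8 writer genes, CBLL1 being the exception. The libraries of these lines did not overlap in 67.7% of all tested genes, in either direction. METTL3 itself differed by 0.07 (SE 0.03, edgeR adjusted p = 0.0161), and this call ended with DESeq2, without either mutant rescue library, or without wild-type rescue replicate 1 (edgeR adjusted p = 0.346). ZC3H13 became a call without wild-type rescue replicate 2 (0.10, edgeR adjusted p = 0.0439). DESeq2 called 4 of the 8.

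**Figure D4:**
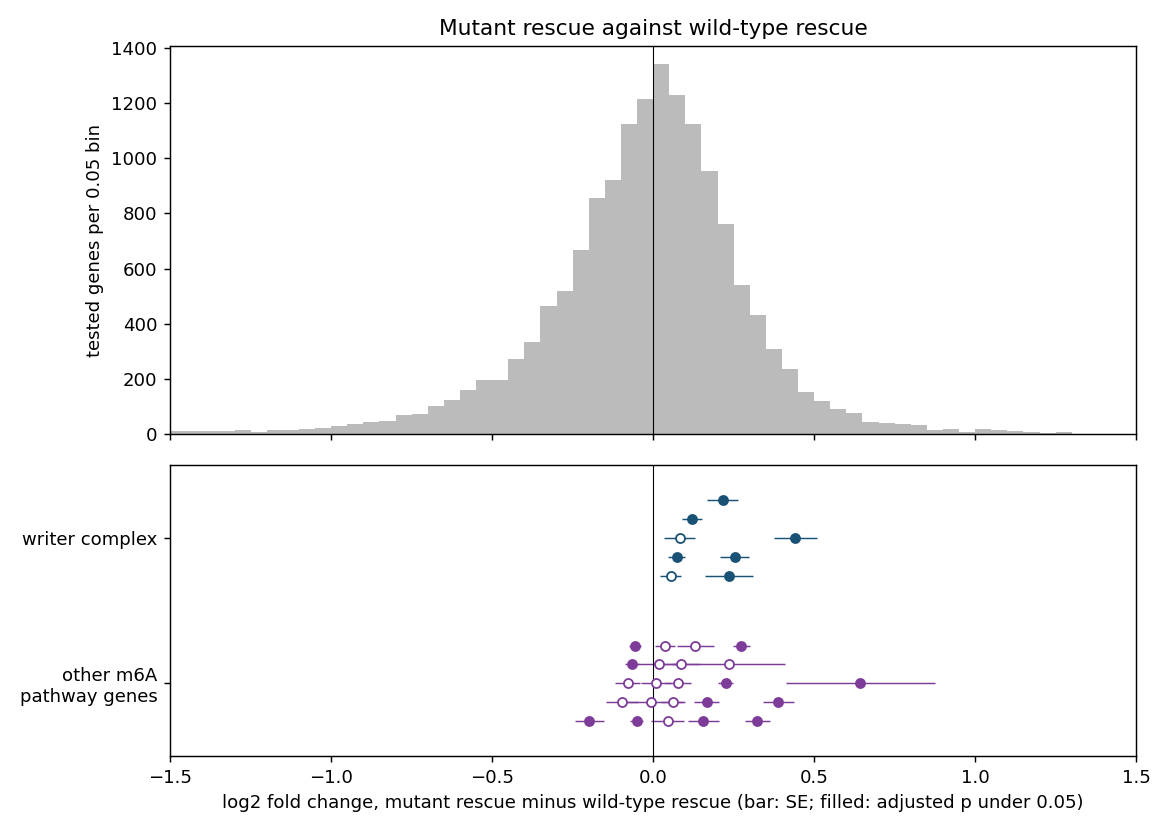
Top: number of tested genes in each 0.05-wide bin of the log2 fold change of the mutant over the wild-type rescue (50 genes beyond 1.5 in either direction not drawn). Bottom: the 8 writer genes and the 23 tested other m6A pathway genes on the same axis, with SE bars, filled where the adjusted p was under 0.05 and spread vertically only for legibility; all writer genes lie to the right of 0.

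Against the control, the rescues share the same 2 control libraries, so their values are given side by side. In the mutant rescue 6 of 8 writer genes were called (58.8% of all tested genes, with 29.1% higher and 29.7% lower): METTL3, METTL14, WTAP, RBM15 and ZC3H13 higher and RBM15B lower. In the wild-type rescue 4 of 8 were called (49.3% of all tested genes, with 23.8% higher and 25.5% lower): METTL3 and ZC3H13 higher, RBM15B and KIAA1429 lower. Without METTL3, which was introduced by design, 5 of 7 were called in the mutant rescue and 3 of 7 in the wild-type rescue. METTL14 had log2 fold changes of 0.38 in the mutant and 0.15 in the wild-type rescue, WTAP of 0.32 and 0.07, and RBM15 of 0.41 and -0.03. RBM15B was below the control in both, and ZC3H13 above it in both. The 6 calls of the mutant rescue held in every alternative setting.

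Beyond the writer complex, 24 other genes of the m6A pathway were listed and 23 were tested; IGF2BP1, with 1 to 11 counts in a library, was not. On knockdown 6 rose and 10 fell (22.9% and 25.1% of all tested genes), with a median of -0.04 on the log2 scale beside -0.01 over all tested genes. The largest fall was in MAT1A, a synthase of the methyl donor found mainly in liver (-0.78, SE 0.17), at only 6.31 CPM in the control. MAT2A, the synthase of most other tissues, fell by 0.61 (SE 0.03, edgeR adjusted p = 3.46e-37), from 174 to 114 CPM. It stood at 104 CPM in the wild-type rescue and 98.8 CPM in the mutant rescue, both below the knockdown by edgeR; of these only the mutant rescue kept the call with DESeq2 and with each library left out (wild-type rescue, DESeq2 adjusted p = 0.0604). YTHDF3, a cytoplasmic reader, had the largest rise on knockdown (0.18, SE 0.04).

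The demethylase FTO was not called in any of the 6 comparisons by edgeR with all libraries, with line means of 69.9 to 75.3 CPM. It became a call in the mutant rescue against the knockdown with only genes of at least 10 CPM tested (-0.11, edgeR adjusted p = 0.0350). The other demethylase, ALKBH5, was at 242.9, 240.1 and 227 CPM in the control, knockdown and wild-type rescue and at 274 CPM in the mutant rescue. METTL16, a separate m6A methyltransferase that acts on MAT2A and on a spliceosomal RNA, was at 66.4, 72.0, 65.4 and 85.5 CPM in the same order. Both were higher in the mutant than in the wild-type rescue, ALKBH5 by 0.27 (SE 0.03, edgeR adjusted p = 7.59e-18) and METTL16 by 0.39 (SE 0.05, edgeR adjusted p = 1.37e-12).

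Of the 23 genes, 7 were called higher and 4 lower in the mutant rescue relative to the wild-type rescue, together near the 41.3% called among all tested genes (21.0% higher and 20.3% lower). The largest rise was in the reader IGF2BP2 (0.64, SE 0.23), at 2.20 to 3.49 CPM, and the largest fall in YTHDC2 (-0.20, SE 0.05). In the mutant rescue against the knockdown 11 were higher and 5 lower (25.9% and 25.8% of all tested genes), with IGF2BP2 at 0.75 (SE 0.23) and YTHDC2 at -0.24 (SE 0.05) at the ends. In the wild-type rescue against the knockdown 2 were higher and 5 lower (10.8% and 13.2% of all tested genes), from YTHDF3 at -0.24 (SE 0.04) to the nuclear RNA-binding protein HNRNPA2B1 at 0.10 (SE 0.02). Against the control 4 were higher and 10 lower in the wild-type rescue (23.8% and 25.5% of all tested genes). In the mutant rescue 8 were higher and 5 lower (29.1% and 29.7%). MAT2A had the largest fall in both (-0.74 and -0.82). The largest rises there were in MAT2B (0.21, SE 0.05), a regulatory subunit for MAT2A, and IGF2BP2 (0.72, SE 0.24).

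Patterns like those of 3 writer genes were looked for among 11132 genes, as the smallest root mean square difference of mean-centred log2 CPM over the 8 libraries. For METTL14 the nearest were SAMD8 (0.031), STK16 (0.032) and MED23 (0.038), and for WTAP they were H3F3B (0.026), TERF2IP (0.028) and ELP5 (0.028). H3F3B, a gene for the replacement histone H3.3, went from 356.7, 350, and 373.7 CPM in the control, knockdown and wild-type rescue to 442.7 CPM in the mutant rescue. Nothing came near METTL3, whose own spread was 1.51: the nearest were LAMB2P1, PPP1R32 and DRD4, at differences of 1.00 to 1.04. METTL3 was lowered or introduced by design, so no conclusion is drawn from this distance.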

How the data were processed

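The 8 LNCaP libraries come from a stranded messenger RNA kit, per the labels' protocols. Per the submitters' processing notes, the build was hg19 and the tools were STAR 2.5.2b, featureCounts, CASAVA and DESeq2, without parameters. The authors deposited raw counts per gene and a gene length. Counts were fitted with edgeR 4.0.16 in R 4.3.3: filterByExpr (minimum count 10, total 15), TMM scaling, 1 mean per line over all 8 libraries, and robust quasi-likelihood tests, two-sided, adjusted by Benjamini-Hochberg over 15289 genes and called under 0.05. SE is the absolute log2 fold change over the square root of F. The fit was checked on counts simulated with the fitted spread for the knockdown comparison. It called 96 of 100 genes changed by 0.5 on the log2 scale, 100 of 100 changed by 1, and 18 of 14913 unchanged genes. Far fewer genes were changed there than the 48.0% called in the data, so scaling with many changed genes was not checked. Smaller changes, as in the writer genes other than METTL3, were not simulated. The alternatives were DESeq2 size factors, the DESeq2 1.42.0 Wald test, no filter, a mean of at least 10 CPM, only the groups compared, a replicate block, a length trend removed by lowess (span 0.3) and each library left out in turn. Where that leaves a line with 1 library, it is assumed to vary like the others. Named are all 8 writer genes, FTO, ALKBH5, METTL16 and MAT2A, the largest called changes among the other pathway genes, and the 3 nearest patterns of METTL3, METTL14 and WTAP among genes averaging 5 CPM or more, without clone names. SOD2, TOX4 and DCAF1 were added after their overlap was seen. Members and lists were chosen with earlier results of these data known. Some listed luminal markers are not reported here. Libraries of 15200343 to 17893241 counts set the precision, and reads without molecular identifiers may repeat a molecule.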

Additional observations from a re-analysis of the deposited data

How the results depend on the processing

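DESeq2 called 4767 genes instead of 7337 in the knockdown against the control and 1 writer gene instead of 3. It called 1705 instead of 3673 in the wild-type rescue against the knockdown and 3749 instead of 6307 between the rescues. In the wild-type rescue against the control it called 4995 instead of 7531. The mutant rescue had 5441 instead of 7909 against the knockdown and 6644 instead of 8993 against the control. The cause was not tested. Leaving out 1 library gave 1 to 3 writer genes in the first of these. Without length scaling the ratio of METTL3 to METTL14 was 3.07 (control), 1.10 (knockdown), 12.8 (wild-type rescue) and 11.4 (mutant rescue), a change fixed by the gene lengths. DESeq2 size factors, no filter on low counts and the replicate block each left the side of the threshold and the direction the same in all 48 pairs of a writer gene and a comparison. DESeq2 ended 6 of those calls, the length trend ended 2 and added 3, the filter at 10 CPM added 2, and fitting only the groups compared added 1. Over the 8 libraries left out in turn, 12 calls of a writer gene ended and 6 were added, with no change of direction among calls. With the replicate block 3, 3, 5, 6, 4 and 6 writer genes were called in the knockdown against the control, the wild-type and the mutant rescue each against the knockdown, the mutant rescue against the wild-type, and both rescues (wild-type first) against the control, as without it. Same-numbered libraries did not deviate together (r of -0.0379 to 0.0396 between lines over 11572 genes). Whether they shared a culture or a batch was not tested. METTL14 and RBM15, with 336 to 588 counts a library, had the largest SE of the writer genes; METTL3 had as few only in the knockdown (464 and 493).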

Other observations

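Summed over the 7 writer genes other than METTL3, the level per kilobase was 106.5 ± 0.893 CPM per kilobase in the control (SD, n = 2). It was 106.6 in both knockdown libraries, 101.9 ± 0.551 with wild-type METTL3 added and 115.5 ± 1.34 with the mutant. METTL3 made up 24.1% ± 0.133 of the sum of all 8 in control cells and 11.8% ± 1.32 in knockdown cells. With wild-type METTL3 added its share was 60.6% ± 0.681, and with the mutant 58.8% ± 0.235. These values were computed after the gene results were seen and were not tested.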
